A study of Mus musculus with 2 samples.

Results

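The Wnt ligands, their Frizzled receptors and the Sfrp and Dkk antagonists were examined in the bladder of the newborn mouse. The set holds every protein-coding gene of the GENCODE M21 annotation whose symbol is Wnt, Fzd, Sfrp or Dkk followed by a number, with or without a final a or b. This gave 37 of 21474 protein-coding genes, made up of 19 Wnt ligands, 10 Frizzled receptors, 4 Sfrp genes and 4 Dkk genes. All 37 were present in the gene tables of both animals. Whole bladders came from 2 pups of the inbred strain B6NCrl on postnatal day 0, both from the litter of 1 pregnant female, and the labels give no sex. Total RNA above 200 nt, with spike-in RNAs and 10 ng of starting material, gave 1 library per pup. Pup 2 and pup 1 form 1 group (n = 2) for which the labels name no treatment, so the design implies no contrast beyond the spread between these littermates. Whole bladder mixes urothelium, connective tissue, smooth muscle, vessels and nerves, and no value can be assigned to a cell type.

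Wnt proteins are secreted, lipid-modified ligands that bind Frizzled receptors at the cell surface. With the co-receptors Lrp5 and Lrp6 they stabilise β-catenin, which then acts with TCF/LEF factors on target genes, while other Wnt signals pass through Ror and Ryk receptors without β-catenin. Sfrp proteins carry a Frizzled-like domain and bind Wnt ligands outside the cell, and Dkk proteins block Lrp5 and Lrp6, apart from the divergent member Dkk3. In the adult mouse bladder, Sonic hedgehog from the urothelium is known to induce Wnt2 and Wnt4 in the stroma, and these act back on the urothelium.

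The gene tables held 32564256 expected counts for mouse genes in pup 2 and 43653536 in pup 1. Markers of the labelled tissue were present: all 10 urothelium markers, all 8 smooth muscle markers and all 8 fibroblast markers reached at least 1 TPM in both pups, TPM being the abundance of transcripts per library corrected for their length, and their median log2 ratios of pup 2 over pup 1 were -0.02, -0.07 and -0.13. The pups differed in other lists. Summed macrophage markers were at 1782 TPM in pup 2 and 523 TPM in pup 1, with all 8 higher in pup 2, and summed erythroid markers were at 59107 TPM in pup 2 and 21722 TPM in pup 1, with all 8 higher in pup 2. Summed liver markers were at 20.2 TPM in pup 2 and 75.0 TPM in pup 1, with all 7 lower in pup 2, and summed proliferation markers were at 321 TPM in pup 2 and 428 TPM in pup 1, with all 10 lower in pup 2. Skeletal muscle markers summed to 7721 TPM in pup 2 and 8654 TPM in pup 1, and all 6 with enough counts were lower in pup 2. Most of this sum was Acta1, at 6667.5 TPM in pup 2 and 7283 TPM in pup 1. Of the 9 markers 6 reached 1 TPM in both pups, while Myh3, Myod1 and Myog did not. The remaining lists went in both directions. Schwann cell markers summed to 30.7 TPM in pup 2 and 20.4 TPM in pup 1, endothelial markers to 152 TPM in pup 2 and 136 TPM in pup 1 and mesothelial markers to 390 TPM in pup 2 and 409 TPM in pup 1. The gap in the Schwann cell sum was carried by Fabp7, at 16.9 TPM in pup 2 and 6.58 TPM in pup 1. Of the 5 Schwann cell markers with enough counts 4 were higher in pup 2 and 1, Erbb3, was lower. None of the 7 kidney markers and 1 of the 6 gut epithelium markers reached 1 TPM in both pups. With 1 library per pup there is no test across animals. Log2 ratios of pup 2 over pup 1 use scaled counts, and their 95% intervals are exact binomial intervals that cover counting error only.

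The 250 bases before the start of 4 ligand genes are shown first because later passages refer to them. Their part in the levels was not tested. Reads of Wnt11 and Wnt5b were assigned to a pair of start sites in proportions that differed between the pups. The assignment was uncertain for both genes. Wnt9a and Wnt3a are neighbours read from opposite strands, and Wnt9a was detected while Wnt3a was not. Sequences are from the RefSeq promoter table (GRCm38.p6, the assembly also called mm10), printed 5′ to 3′ on the strand of the gene, and capitals mark CpG dinucleotides.
Wnt11 first start, chr7:98834862-98835111, plus strand: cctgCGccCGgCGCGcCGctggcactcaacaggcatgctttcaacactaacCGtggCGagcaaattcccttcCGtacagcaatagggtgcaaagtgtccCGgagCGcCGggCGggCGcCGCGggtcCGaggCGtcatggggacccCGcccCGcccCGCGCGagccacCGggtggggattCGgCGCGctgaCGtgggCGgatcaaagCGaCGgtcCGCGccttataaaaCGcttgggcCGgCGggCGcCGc
Wnt11 downstream start, chr7:98838595-98838844, plus strand: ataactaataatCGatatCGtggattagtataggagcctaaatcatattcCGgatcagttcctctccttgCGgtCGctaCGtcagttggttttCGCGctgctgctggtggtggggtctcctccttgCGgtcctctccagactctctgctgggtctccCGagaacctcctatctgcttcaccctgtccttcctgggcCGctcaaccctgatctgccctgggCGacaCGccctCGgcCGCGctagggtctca
Wnt5b first start, chr6:119544348-119544597, minus strand: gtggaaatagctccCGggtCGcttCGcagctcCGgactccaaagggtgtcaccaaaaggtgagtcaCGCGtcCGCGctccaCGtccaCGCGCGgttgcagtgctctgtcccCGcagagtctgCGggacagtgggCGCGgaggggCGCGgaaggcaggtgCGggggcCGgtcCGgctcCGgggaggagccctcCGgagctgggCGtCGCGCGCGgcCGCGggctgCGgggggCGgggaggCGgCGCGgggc
Wnt5b downstream start, chr6:119467212-119467461, minus strand: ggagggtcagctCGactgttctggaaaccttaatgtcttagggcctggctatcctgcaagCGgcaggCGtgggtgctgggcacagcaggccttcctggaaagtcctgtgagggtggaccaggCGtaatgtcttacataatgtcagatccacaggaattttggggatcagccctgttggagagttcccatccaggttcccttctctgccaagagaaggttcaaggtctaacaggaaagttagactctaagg
Wnt9a, chr11:59306680-59306929, plus strand: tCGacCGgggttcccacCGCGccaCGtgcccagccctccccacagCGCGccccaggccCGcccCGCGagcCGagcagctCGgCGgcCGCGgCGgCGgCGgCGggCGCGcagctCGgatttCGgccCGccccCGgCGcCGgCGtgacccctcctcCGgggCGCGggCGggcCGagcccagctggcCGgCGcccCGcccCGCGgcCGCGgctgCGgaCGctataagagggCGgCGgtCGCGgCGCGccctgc
Wnt3a, chr11:59290752-59291001, minus strand: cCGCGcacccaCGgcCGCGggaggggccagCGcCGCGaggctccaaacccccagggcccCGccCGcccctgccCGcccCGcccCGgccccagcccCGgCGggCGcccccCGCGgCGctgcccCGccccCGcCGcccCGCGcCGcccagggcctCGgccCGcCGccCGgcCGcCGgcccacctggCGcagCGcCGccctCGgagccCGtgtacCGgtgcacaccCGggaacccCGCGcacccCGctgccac

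Of the 37 genes, 23 reached 1 TPM in both pups, which is 62.2% against 58.5% of all protein-coding genes. The other 14 stayed under 1 TPM in both pups, so no gene crossed the threshold in a single pup. Detected were 11 of 19 Wnt ligands, 7 of 10 Frizzled receptors, 3 of 4 Sfrp genes and 2 of 4 Dkk genes. The median of the mean levels was 3.82 TPM over the 37 genes and 3.36 TPM over all protein-coding genes. The highest were Sfrp2 at 85.4 ± 23.9 TPM, Dkk3 at 81.8 ± 7.18 TPM and Wnt2 at 57.0 ± 3.57 TPM (SD, n = 2 each), and these lay above 92.9%, 92.5% and 89.4% of protein-coding genes.

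**Figure D1:**
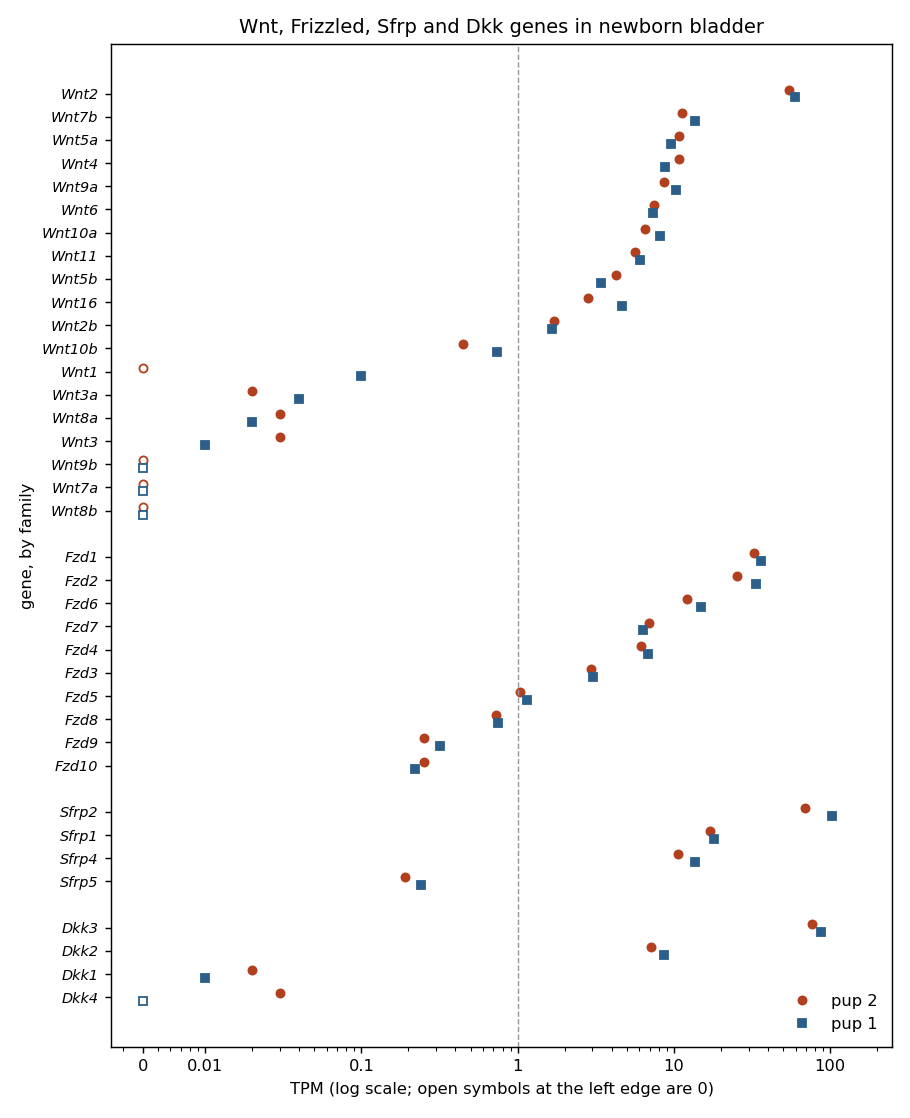
Level of each of the 37 genes in TPM on a log axis, grouped by family, with 1 point per pup. Wnt2, Fzd1, Sfrp2 and Dkk3 lead their families in both pups, with Wnt2 at 54.5, Fzd1 at 32.3, Sfrp2 at 68.5 and Dkk3 at 76.7 TPM in pup 2, and at 59.5, 36.2, 102 and 86.9 TPM in pup 1.

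Among the ligands Wnt2 stood far above the rest. Wnt2 (ENSMUSG00000010797, chr6:17988940-18030585, minus strand, mm10), a ligand of the mesenchyme in several organs, had 54.5 TPM in pup 2 and 59.5 TPM in pup 1, on 2586 counts in pup 2 and 3505 in pup 1. The pups were alike within counting error, with a log2 ratio of -0.03 (95% interval -0.11 to 0.04). Wnt2 made up 43.7% of summed Wnt TPM in pup 2 and 44.4% in pup 1.

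Next came a group of ligands at about 10 TPM. Wnt7b, made by epithelia in the lung and the kidney collecting duct, had 11.2 TPM in pup 2 and 13.6 TPM in pup 1. Wnt5a, a ligand of Ror2 and a driver of outgrowth in the embryo, had 10.7 TPM in pup 2 and 9.57 TPM in pup 1. Wnt4, needed for kidney tubule formation and, with Wnt2, named above as a stromal ligand of the adult bladder, had 10.8 TPM in pup 2 and 8.81 TPM in pup 1. In TPM, Wnt5a and Wnt4 were higher in pup 2 while Wnt7b was lower. Wnt9a, which acts in joint formation, had 8.59 TPM in pup 2 and 10.3 TPM in pup 1. The ranges of Wnt5a, Wnt4 and Wnt9a over the pups overlapped, and that of Wnt7b lay above all of them. In pup 2 the order of these 4 was Wnt7b, Wnt4, Wnt5a and Wnt9a, and in pup 1 it was Wnt7b, Wnt9a, Wnt5a and Wnt4.

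The remaining detected ligands were lower. Wnt6, an epithelial ligand, had 7.50 TPM in pup 2 and 7.39 TPM in pup 1, and Wnt10a, required in tooth and skin appendages, had 6.56 TPM in pup 2 and 8.11 TPM in pup 1. Wnt11, which acts in branching of the ureteric bud, had 5.60 TPM in pup 2 and 6.05 TPM in pup 1. Wnt5b, the paralogue of Wnt5a, had 4.25 TPM in pup 2 and 3.39 TPM in pup 1, overlapping Wnt16, a regulator of cortical bone, at 2.81 TPM in pup 2 and 4.63 TPM in pup 1. Wnt2b, which acts with Wnt2 in lung specification, was the lowest detected ligand at 1.70 TPM in pup 2 and 1.66 TPM in pup 1. Wnt6 and Wnt10a overlapped, Wnt11 lay below both, and Wnt2b lay below all other detected ligands in both pups.

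The other 8 ligands were below 1 TPM in both pups. Wnt10b, an inhibitor of fat cell formation, had 0.45 TPM in pup 2 and 0.74 TPM in pup 1, on 23 counts in pup 2 and 47 in pup 1. Wnt1, needed for the midbrain, had 0 counts in pup 2, which allows up to 0.0550 TPM, and 7 counts or 0.10 TPM in pup 1. Wnt3a, a ligand of the presomitic mesoderm, had 1 count in pup 2 and 3 in pup 1. These counts are too few to compare the pups. Wnt8a and Wnt3 act in the early embryo, and Wnt8a had 1 count in each pup while Wnt3 had 2 counts in pup 2 and 1 in pup 1. Wnt9b, a ligand of the ureteric duct, Wnt7a, a ligand of the limb and the female reproductive tract, and Wnt8b, a forebrain ligand, had 0 counts in both pups. A count of 0 allows up to 0.0284 TPM in pup 2 and 0.0227 TPM in pup 1 for Wnt9b, 0.110 TPM in pup 2 and 0.0880 TPM in pup 1 for Wnt7a, and 0.0383 TPM in pup 2 and 0.0306 TPM in pup 1 for Wnt8b. These limits cover counting error only. That of Wnt7a uses an effective length of 1138 bases for the whole gene. Its annotated transcripts have 250 to 3172 bases, so it is not a bound for each of them.

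Of the 19 ligand genes, 8 lie in 4 neighbouring pairs less than 50 kb apart, and detection differed within 1 pair. Wnt6 and Wnt10a, 6193 bases apart on chromosome 1 and read from the same strand, were both detected at overlapping levels. Wnt3a and Wnt9a lie 16175 bases apart on chromosome 11 and are read from opposite strands, and Wnt3a had 0.02 TPM in pup 2 and 0.04 TPM in pup 1, far below Wnt9a in both. The pairs Wnt9b with Wnt3, 24328 bases apart on chromosome 11, and Wnt10b with Wnt1, 11706 bases apart on chromosome 15, had no member at 1 TPM. In the sequences shown above, Wnt9a held 48 CpG and Wnt3a held 41 in the window, so both starts were CpG-rich whether or not the gene was detected.

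**Figure D2:**
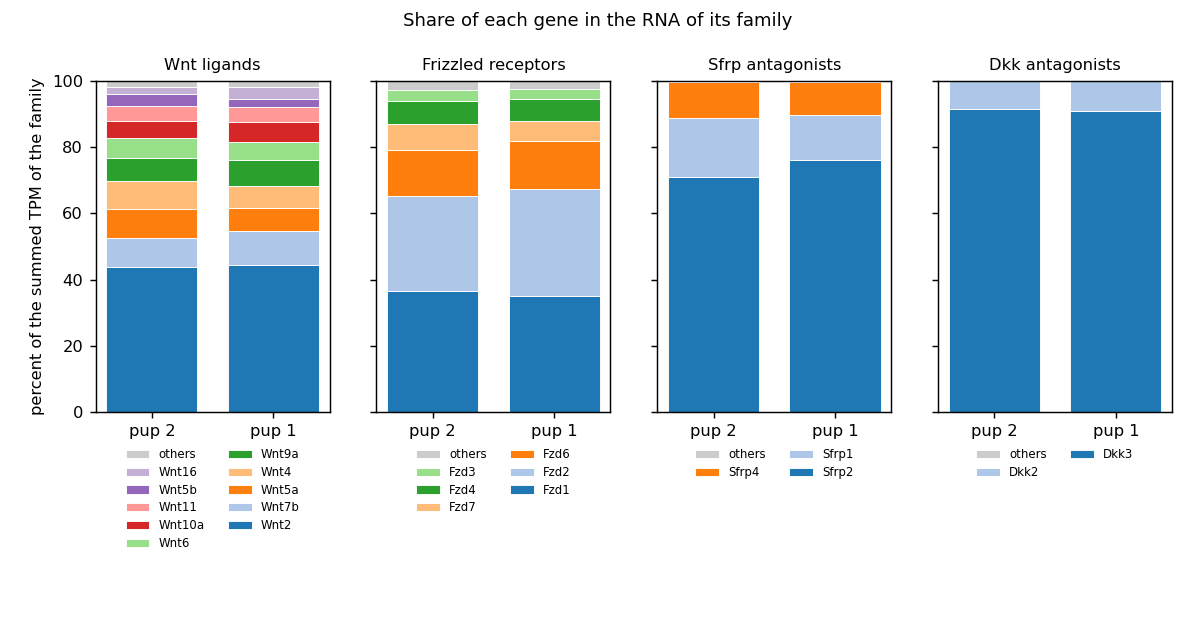
Percent of the summed TPM of each family that each gene makes up, with 1 bar for pup 2 and 1 for pup 1, for Wnt, Frizzled, Sfrp and Dkk genes. A single gene makes up 43.7% and 44.4% of the Wnt bar (Wnt2), 71.1% and 76.2% of the Sfrp bar (Sfrp2) and 91.4% and 90.9% of the Dkk bar (Dkk3) in pup 2 and pup 1.

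Among the receptors, Fzd1 and Fzd2 were the highest. Fzd1 (ENSMUSG00000044674, chr5:4753839-4758035, minus strand, mm10) had 32.3 TPM in pup 2 and 36.2 TPM in pup 1, and Fzd2 had 25.5 TPM in pup 2 and 33.3 TPM in pup 1. Fzd7, which forms a subgroup of closely related sequences with Fzd1 and Fzd2, had 6.95 TPM in pup 2 and 6.33 TPM in pup 1. Fzd1 was above Fzd2 within each pup, but their ranges over the pups overlapped. Together Fzd1 and Fzd2 gave most of the receptor signal, with 36.6% and 28.8% of summed Frizzled TPM in pup 2 and 35.1% and 32.3% in pup 1.

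The other receptors ran from 15 TPM downwards. Fzd6, which orders hair follicles across the mouse skin, had 12.2 TPM in pup 2 and 14.9 TPM in pup 1. Fzd4, the receptor for norrin in retinal vessels, had 6.19 TPM in pup 2 and 6.87 TPM in pup 1, overlapping Fzd7, and the order of Fzd7 and Fzd4 differed between the pups. Fzd3, a planar polarity receptor of growing axons, had 2.96 TPM in pup 2 and 3.05 TPM in pup 1. Fzd5, needed in yolk sac vessels, was just inside the threshold at 1.04 TPM in pup 2 and 1.15 TPM in pup 1. Its close relative Fzd8 was just outside at 0.73 TPM in pup 2 and 0.75 TPM in pup 1. Fzd9 and Fzd10 were low, with 13 counts of Fzd9 in pup 2 and 21 in pup 1, and 19 counts of Fzd10 in pup 2 and 21 in pup 1.

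Sfrp2 was the highest of the 37 genes by mean level and the gene in which the pups stood furthest apart in TPM. Sfrp2 (ENSMUSG00000027996, chr3:83766321-83774316, plus strand, mm10) had 68.5 TPM in pup 2 and 102 TPM in pup 1, on 3119 counts in pup 2 and 5793 in pup 1. Its order against Dkk3 differed between the pups, with Dkk3 higher in pup 2 and Sfrp2 higher in pup 1. Sfrp1, its relative within the family, had 17.1 TPM in pup 2 and 18.1 TPM in pup 1, and Sfrp4, from the more distant subgroup that includes Frzb, had 10.6 TPM in pup 2 and 13.7 TPM in pup 1. Sfrp5 was below 1 TPM, on 8 counts in pup 2 and 13 in pup 1. The antisense gene Gm26771 shares 347 exon bases with Sfrp2 and held 61.3 counts in pup 2 and 91.2 counts in pup 1. Whether counting used strand is not given in the sources used here, so reads of the overlap cannot be told apart. Exon overlaps of Wnt7b with AU022754, Wnt5a with Gm2670, Fzd5 with Gm38058 and Fzd6 with Gm26704 have the same limit, and each of these partners was at 0.29 TPM or less in both pups. Wnt11 shares 364 exon bases with the pseudogene Gm8398 on the opposite strand, which had 0 counts in both pups.

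The Dkk family was almost all Dkk3. Dkk3 (ENSMUSG00000030772, chr7:112116017-112159057, minus strand, mm10), the member that differs most in sequence from the others, had 76.7 TPM in pup 2 and 86.9 TPM in pup 1, on 5979 counts in pup 2 and 8474 in pup 1. Dkk2, which acts in eye development, had 7.14 TPM in pup 2 and 8.67 TPM in pup 1. Dkk1, the head inducer first described in the frog Xenopus, had 1 count in each pup, and Dkk4, which acts in skin appendages, had 1 count in pup 2 and 0 in pup 1. The Lrp-binding Dkk members were thus represented at 1 TPM by Dkk2 alone.

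In pup 2 but not in pup 1, whether the Sfrp and Dkk antagonists or the Wnt ligands had the higher summed TPM depended on Dkk3. Other extracellular antagonists were not part of these sums. Wnt ligands summed to 125 TPM in pup 2 and 134 TPM in pup 1 (129 ± 6.49, SD, n = 2). Frizzled receptors summed to 88.3 TPM in pup 2 and 103 TPM in pup 1 (95.7 ± 10.4). Sfrp genes summed to 96.3 TPM in pup 2 and 134 TPM in pup 1 (115 ± 26.9), and Dkk genes to 83.9 TPM in pup 2 and 95.6 TPM in pup 1 (89.7 ± 8.24). Every family sum was lower in pup 2, but the median TPM ratio over all genes lay 0.08 lower on the log2 scale than the scaled count ratio. Rescaled to nuclear protein-coding genes without globins, the Wnt sum was 159 TPM in pup 2 and 162 TPM in pup 1, and the Sfrp sum was 123 TPM in pup 2 and 163 TPM in pup 1. With Dkk3, which is not known to block Lrp5 and Lrp6 as other Dkk proteins do, the ratio of summed Sfrp and Dkk TPM to summed Wnt TPM was 1.45 in pup 2 and 1.72 in pup 1. Without Dkk3, an alternative chosen after seeing the data, it was 0.830 in pup 2 and 1.07 in pup 1, so the direction turned in pup 2. The ratio of Frizzled to Wnt was 0.708 in pup 2 and 0.769 in pup 1. The Sfrp sum varied most between the pups, and Sfrp2 made up 71.1% of it in pup 2 and 76.2% in pup 1. These sums are of RNA and say nothing of protein amount.

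Ratios between the littermates could be read for 26 of the 37 genes. None was 2-fold apart among the 23 that averaged 100 counts or more, against 1.98% of all genes at that count. With so small a share over all genes, the absence of such a gene among 23 does not set the members apart. Over the 26 members that averaged 20 counts or more, the median log2 ratio of pup 2 over pup 1 was -0.06, against -0.01 over all genes at that count. Of the 26, 16 were lower in pup 2, against 52.7% of all genes, and 10 were higher. That share was not tested against the one over all genes and does not set the members apart. The counting interval lay below equal levels for 11 of the 26, against 26% of all genes, and above them for 4, against 21.3%, while 11 intervals held equal levels. Over all genes 47.3% of intervals excluded equal levels in either direction. Whether an interval excludes them also depends on the read count of the gene, for which these shares were not matched. By family the median log2 ratio was -0.03 for Wnt, -0.04 for Frizzled, -0.30 for Sfrp and -0.15 for Dkk genes, over 12, 9, 3 and 2 members.

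**Figure D3:**
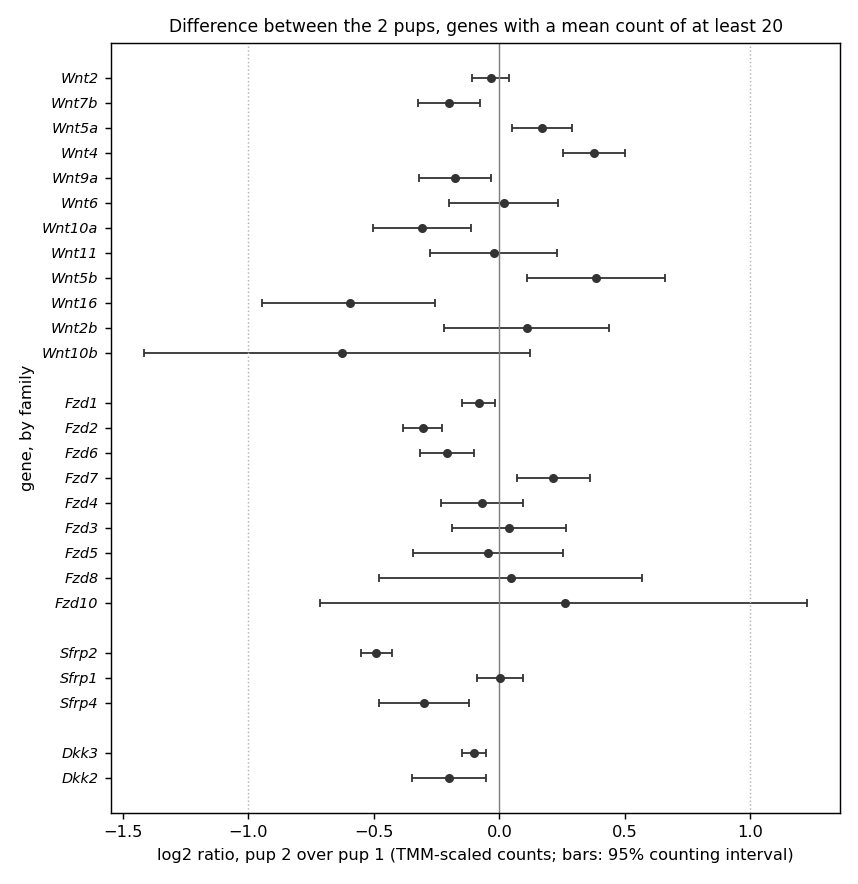
Log2 ratio of pup 2 over pup 1 with its 95% counting interval for the 26 members that averaged 20 counts or more. Wnt16 at -0.60 and Sfrp2 at -0.49 lie furthest below equal levels among members at 100 counts or more, and Wnt5b and Wnt4, both at 0.38, lie furthest above.

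Wnt16 and Sfrp2 differed most among members at 100 counts or more. Wnt16 (ENSMUSG00000029671, chr6:22288227-22298522, plus strand, mm10) had 107 counts in pup 2 and 214 in pup 1, with a log2 ratio of -0.60 (-0.94 to -0.25). At 1.51-fold lower in pup 2 it was the single member past 1.5-fold, against 4.91% of all genes. Sfrp2 had a log2 ratio of -0.49 (-0.55 to -0.43), or 1.40-fold lower in pup 2. The difference of Wnt16 was larger than that of 95.3% of genes with at least 100 counts and the difference of Sfrp2 larger than that of 93.0%. Fibroblast markers had a median log2 ratio of -0.13 and proliferation markers -0.46; their part in the lower Sfrp2 and Wnt16 was not tested. Fewer cells of a type and less RNA per cell cannot be told apart in whole tissue.

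Smaller differences went in both directions. Lower in pup 2 beyond counting error were the receptors Fzd2 at a log2 ratio of -0.31 (-0.38 to -0.23), Fzd6 at -0.21 (-0.32 to -0.10) and Fzd1 at -0.08 (-0.15 to -0.02). The ligands Wnt10a at -0.31 (-0.50 to -0.11), Wnt7b at -0.20 (-0.32 to -0.08) and Wnt9a at -0.18 (-0.32 to -0.03) were lower as well. None of these was as far apart as Wnt16 or Sfrp2. Among antagonists, the same direction was seen for Sfrp4 at -0.30 (-0.48 to -0.12), Dkk2 at -0.20 (-0.35 to -0.05) and Dkk3 at -0.10 (-0.15 to -0.05). Higher in pup 2 were Wnt4 at 0.38 (0.25 to 0.50), Wnt5b at 0.38 (0.11 to 0.66), Wnt5a at 0.17 (0.05 to 0.29) and Fzd7 at 0.22 (0.07 to 0.36). Over all genes at 100 counts or more the SD of the log2 ratio was 0.37, so of these 4 Wnt4 and Wnt5b lay just beyond 1 SD and the others within it. Sfrp1 at 0.00 (-0.09 to 0.09), Wnt2 at -0.03, Wnt6 at 0.02 (-0.20 to 0.23), Wnt11 at -0.02 (-0.27 to 0.23), Fzd4 at -0.07 (-0.23 to 0.09), Fzd3 at 0.04 (-0.19 to 0.26) and Fzd5 at -0.04 (-0.35 to 0.26) had intervals that held equal levels. The same held for Wnt2b at 0.11 (-0.22 to 0.44), Wnt10b at -0.63 (-1.41 to 0.12), Fzd8 at 0.05 (-0.48 to 0.57) and Fzd10 at 0.26 (-0.72 to 1.23), whose intervals also hold sizeable differences.

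Transcript tables gave the isoforms behind these levels. Of the 37 genes, 22 had a single transcript in the deposited tables and 15 had more. Among the 13 detected members with several transcripts, the leading transcript by TPM was the same in both pups for 11 and differed for Wnt11 and Wnt5b. Wnt2-201 made up 66.7% of Wnt2 TPM in pup 2 and 63.3% in pup 1. The rest, 18.1 TPM in pup 2 and 21.8 TPM in pup 1, was assigned to a second transcript that GENCODE M21 does not hold. Other leading transcripts were Wnt7b-201 at 95.4% and 98.0%, Fzd6-202 at 93.8% and 87.0%, Wnt6-201 at 81.2% and 90.6%, and Wnt16-201 at 75.1% and 72.4% of their gene in pup 2 and pup 1. Wnt5a was divided over 2 main start sites 6640 bases apart, with 38.6% and 38.6% of its TPM at the first and 46.3% and 54.1% at the downstream site in pup 2 and pup 1. In TPM the downstream site was at 4.95 in pup 2 and 5.18 in pup 1. The short transcript Wnt5a-204, from a start between them, took 8.80% in pup 2 and 1.88% in pup 1. It did so on only 5.37 estimated reads in pup 2 and 1.28 in pup 1.

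The whole-gene level of Wnt11 (ENSMUSG00000015957, chr7:98835112-98855195, plus strand, mm10) was alike in the pups, while the estimated division of its reads between start sites differed. Transcripts from the first start held 56.4 estimated reads in pup 2 and 174 in pup 1, or 23.4% of Wnt11 TPM in pup 2 and 54.0% in pup 1. Those from the start 3733 bases downstream held 174 reads in pup 2 and 135 in pup 1, or 76.6% of it in pup 2 and 46.0% in pup 1. Most of these reads were assigned to Wnt11-202, annotated as a target of nonsense-mediated decay, and Wnt11-205. Wnt11-202 had 1.27 TPM in pup 2, with a deposited credibility interval of 0.437 to 2.20 TPM, and 3.21 TPM in pup 1, with an interval of 2.20 to 4.16 TPM, so the intervals met at their ends. The posterior SD, the estimator's own uncertainty in dividing reads among transcripts, was 34.2% of the Wnt11-202 count in pup 2 and 13.8% in pup 1. Wnt11-205 had 4.29 TPM in pup 2 (2.46 to 4.87) and 2.29 TPM in pup 1 (1.03 to 3.11), so its intervals overlapped, and its posterior SD was 12.5% of the count in pup 2 and 22.3% in pup 1. Intervals that meet or overlap do not decide whether the difference in start use exceeds the uncertainty of assignment, and this was not tested. The level of these intervals is not given in the sources used here, and they cover 1 library each.

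Wnt5b showed a difference that its read assignment does not resolve. The first start held 139 estimated reads in pup 2 and 184 in pup 1, or 60.6% of Wnt5b TPM in pup 2 and 80.8% in pup 1. The start 77136 bases downstream, used by Wnt5b-202, held 80.7 reads (posterior SD 30.9) in pup 2 and 39.3 reads (posterior SD 23.1) in pup 1. These SDs were 38.3% of the count in pup 2 and 58.8% in pup 1. The leading transcript was Wnt5b-204 in pup 2 and Wnt5b-203 in pup 1, but both share the first start, with 94.6 reads (posterior SD 37.9) for Wnt5b-204 in pup 2 and 184 reads (posterior SD 45.8) for Wnt5b-203 in pup 1.

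**Figure D4:**
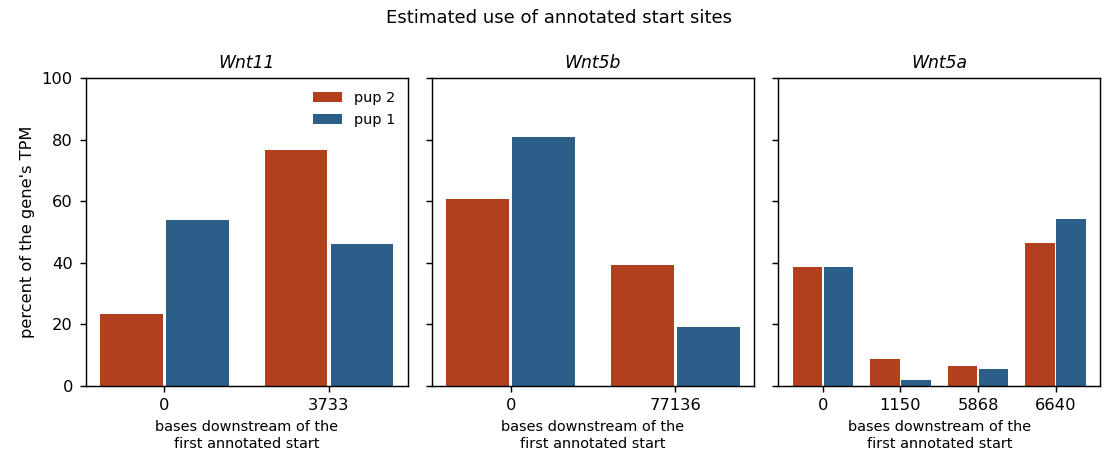
Percent of the TPM of Wnt11, Wnt5b and Wnt5a assigned to each start site in pup 2 and pup 1, with start sites given by their distance in bases from the first. Wnt11 has 76.6% of its TPM at the downstream start in pup 2 and 46.0% in pup 1, and Wnt5b has 39.4% in pup 2 and 19.2% in pup 1.

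Windows of 250 bases before the RefSeq start were found for 25 of the 37 genes, as 28 windows. Of these, 10 held more than 2 bases of annotated GENCODE exons, up to the whole window for Fzd5 and Fzd10, so they do not lie upstream of every annotated start, and 18 held at most 2. Their median CpG number was 22, against 6 over all 32851 windows of the table, and 67.9% of them held at least 15 CpG, against 27.3%. In the 18 windows with at most 2 exon bases the median was 16 CpG, and in the other 10 it was 33. Detected and undetected members had medians of 20 and 22 CpG, over 17 and 11 windows. The start pairs shown above differed: Wnt11 held 37 CpG at the first start and 16 at the downstream start, and Wnt5b held 35 at the first start and 4 at the downstream start. The TCF/LEF core, searched on both strands as CTTTG and then a pair of bases that are each A or T, was in 14.3% of the 28 windows and in 14.8% of all windows. The 4 windows with it belonged to Dkk1, Fzd7, the first start of Wnt11 and a Wnt5b start to which no reads were assigned. That start, used by Wnt5b-201, had a posterior SD of 21.3 reads in pup 2 and 16.4 reads in pup 1. A match is a run of letters and does not show binding.

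The rest of the pathway was present at every step. All 10 genes of ligand secretion and release were detected, led by the glypican Gpc3 at 130 TPM in pup 2 and 153 TPM in pup 1 and the retromer subunit Vps35 at 105 TPM in pup 2 and 122 TPM in pup 1. Next came the Wnt carrier Wls at 88.0 TPM in pup 2 and 116 TPM in pup 1 and the glypican Gpc4 at 67.7 TPM in pup 2 and 95.1 TPM in pup 1. Of 9 co-receptors and alternative receptors 8 were detected, led by Ptk7, a planar polarity receptor, at 24.5 TPM in pup 2 and 23.5 TPM in pup 1. Below it were the Wnt5a receptor Ryk at 11.5 TPM in pup 2 and 14.0 TPM in pup 1, the Wnt7 co-factor Reck at 9.80 TPM in pup 2 and 13.8 TPM in pup 1 and Lrp6 at 8.89 TPM in pup 2 and 10.6 TPM in pup 1. The co-receptors were thus lower in TPM than Fzd1 and Fzd2.

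Regulators at the cell surface were detected in part. Of 9 R-spondins and their receptors 4 were detected, namely Znrf3, a ubiquitin ligase that removes Frizzled from the surface, at 14.0 TPM in pup 2 and 17.4 TPM in pup 1, Lgr4 at 10.9 TPM in pup 2 and 11.4 TPM in pup 1, Rspo1 at 9.54 TPM in pup 2 and 10.5 TPM in pup 1 and Rnf43 at 1.16 TPM in pup 2 and 1.54 TPM in pup 1. Of 11 other extracellular antagonists 6 were detected, led by Sostdc1, an inhibitor of Wnt and BMP signals, at 18.2 TPM in pup 2 and 26.3 TPM in pup 1. Kremen1, the Dkk receptor, had 15.6 TPM in pup 2 and 17.8 TPM in pup 1, the Dkk3 relative Dkkl1 had 13.4 TPM in pup 2 and 11.4 TPM in pup 1, and Tpbg had 6.38 TPM in pup 2 and 6.77 TPM in pup 1. Cer1, an antagonist of the early embryo, had 0 counts in both pups. None of these antagonists reached the level of Dkk3 or Sfrp2 in either pup.

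Inside the cell, 15 of 16 genes of the Dishevelled and β-catenin machinery and 12 of 13 TCF/LEF factors and co-factors were detected. β-Catenin, Ctnnb1, had 204 TPM in pup 2 and 228 TPM in pup 1, and the casein kinases Csnk1a1, Csnk1d and Csnk1e were at 142 TPM in pup 2 and 167 TPM in pup 1, at 58.0 TPM in pup 2 and 66.4 TPM in pup 1 and at 34.2 TPM in pup 2 and 43.8 TPM in pup 1. β-Catenin RNA was thus above every one of the 37 family members. Tcf7l2 was the highest factor at 32.5 TPM in pup 2 and 37.2 TPM in pup 1, before the β-catenin inhibitor Ctnnbip1 at 24.3 TPM in pup 2 and 29.3 TPM in pup 1, Pygo2 at 15.2 TPM in pup 2 and 18.5 TPM in pup 1 and Tcf7l1 at 12.1 TPM in pup 2 and 13.5 TPM in pup 1. Of 15 genes widely used as β-catenin targets 13 were detected. The highest were Nkd1 at 55.0 TPM in pup 2 and 64.0 TPM in pup 1, Myc at 42.7 TPM in pup 2 and 43.6 TPM in pup 1, Nkd2 at 36.3 TPM in pup 2 and 39.0 TPM in pup 1 and Ccnd1 at 24.2 TPM in pup 2 and 32.1 TPM in pup 1. The lowest detected were Axin2, at 1.15 TPM in pup 2 and 1.57 TPM in pup 1, and Rnf43. Lgr5, at 0.31 TPM in pup 2 and 0.22 TPM in pup 1, and Sp5, at 0.29 TPM in pup 2 and 0.17 TPM in pup 1, were not detected. Of 16 planar polarity and non-canonical genes 12 were detected, led by Camk2d at 77.2 TPM in pup 2 and 96.4 TPM in pup 1, Fuz at 24.2 TPM in pup 2 and 25.3 TPM in pup 1, Prickle1 at 20.3 TPM in pup 2 and 23.4 TPM in pup 1 and Vangl1 at 16.3 TPM in pup 2 and 19.5 TPM in pup 1. The detected share of these lists can be read against the 58.5% of all protein-coding genes, although the lists were drawn up from genes known to be in wide use.

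Between the pups, the 8 pathway lists had median log2 ratios from -0.19 for secretion and release to 0.05 for the targets and for the other antagonists, against -0.01 over all genes. Co-receptors were at -0.14, R-spondins and their receptors at -0.07, the β-catenin machinery at -0.02, TCF/LEF factors at -0.05 and planar polarity genes at -0.08. The counting interval lay below equal levels for 7 of 10 secretion genes, 5 of 8 co-receptors, 5 of 16 machinery genes, 5 of 16 planar polarity genes, 4 of 14 targets, 2 of 13 TCF/LEF factors, 2 of 8 R-spondin genes and 2 of 6 other antagonists, against 26% of all genes. In the same order, it lay above equal levels for 2, 1, 3, 2, 4, 0, 1 and 2 genes, against 21.3% of all genes. The single list gene 2-fold apart at 100 counts or more was Cd44, a cell adhesion receptor used as a β-catenin target, at 28.3 TPM in pup 2 and 13.9 TPM in pup 1, with a log2 ratio of 1.01 (0.92 to 1.10). Cd44 is also made by leukocytes, and all 8 macrophage markers were higher in pup 2, with a median log2 ratio of 1.18; their part in the Cd44 difference was not tested. Among genes with at least 100 counts, 1.7% were 2-fold higher in pup 2 and 0.283% 2-fold lower.

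**Figure D5:**
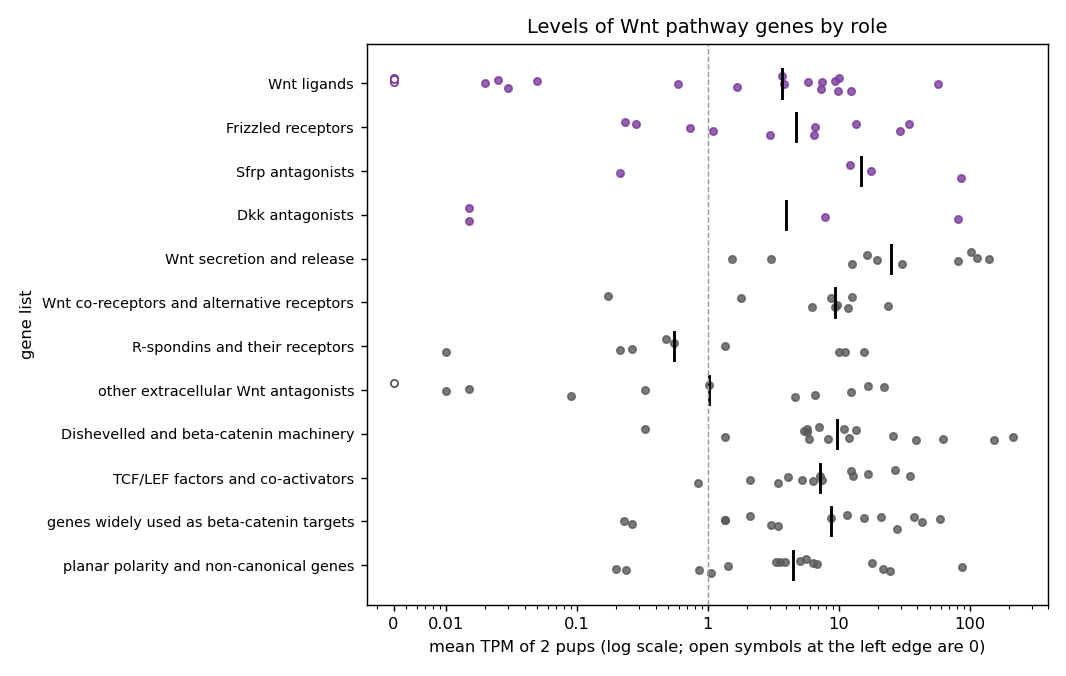
Mean TPM over the pups on a log axis, with 1 point per gene and a black bar at each median, for the Wnt, Frizzled, Sfrp and Dkk families and the 8 pathway lists, and a dashed line at 1 TPM. List medians range from 0.555 TPM for R-spondins and their receptors to 25.1 TPM for secretion and release.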

How the data were processed

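Total RNA-seq of whole newborn mouse bladder was analysed for 2 pups with 1 library each. The authors deposited gene and transcript tables in the column layout that RSEM writes, on mm10 with GENCODE M4 per the labels. What aligned the reads, which software version counted them and whether strand was used is not given in the sources used here. Expected counts, as the authors deposited them, are read numbers in which their software divides multi-mapped reads. The deposited TPM are scaled to a fixed sum over all file entries including spike-ins, and the deposited FPKM are scaled by transcript length and by fragments sequenced. The authors also deposited posterior means, posterior SDs, credibility intervals and the percent of each gene's TPM per transcript, which are other estimates of the same reads.

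Of 43346 mouse genes, 42462 were matched by identifier to GENCODE M21 names. Detection means at least 1 TPM in both pups. Pup 2 had 32564256 expected counts and pup 1 had 43653536, and a count of 0 allows up to 3 counts. Log2 ratios of pup 2 over pup 1 used expected counts rounded to whole numbers and scaled by TMM factors from edgeR 4.0.16 in R 4.3.3. Exact 95% binomial intervals were computed with scipy 1.17.1 and Python 3.11.15. They cover counting error only, since reads without molecular identifiers are not independent molecules. A mean count of at least 20 was needed for ratios and 100 for fold calls. No test across animals was run, because each animal has 1 library and both are in 1 group. TPM ratios had a median 0.08 lower on the log2 scale than scaled count ratios. DESeq2 1.42.0 size factors served as an alternative scaling. Other alternatives were the detection threshold, FPKM, posterior means, rescaled TPM, the pseudocount of 1 TPM, the count minimum and leaving out each pup. Starts within 500 bases were joined. The scaling and calling steps were tested on simulated data.

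The gene set, the 8 pathway lists and the 13 marker lists were chosen with earlier results of these data known. All set members are named. Of each pathway list the 4 highest genes by mean TPM, those 2-fold apart and those with 0 counts are named, and of the β-catenin targets the lowest as well. The list names Tiki1 and Gpr124 were not found in the annotation.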

Additional observations from a re-analysis of the deposited data

How the results depend on the processing

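The number of genes at the detection threshold was 23, and between 21 and 24 under every alternative tried: 24 at 0.5 TPM, where Fzd8 was added, 21 at 2 TPM, where Fzd5 and Wnt2b were lost, and 22 by FPKM, where Fzd5 was lost. Without either pup it stayed at 23. Sums depended on the unit. Rescaled to nuclear protein-coding genes without globins, the mean summed TPM was 161 for Wnt, 119 for Frizzled, 143 for Sfrp and 111 for Dkk genes, and in FPKM the sums were 91.7, 67.8, 81.5 and 63.6. Leaving out each pup in turn gave sums from 125 to 134 TPM for Wnt, 88.3 to 103 TPM for Frizzled, 96.3 to 134 TPM for Sfrp and 83.9 to 95.6 TPM for Dkk genes. With no count minimum and 0 set to 3 counts, 3 genes were 2-fold apart, Wnt3a, Wnt3 and Dkk4, each on at most 3 counts in each pup. No fold can be read from them. By the same setting Wnt1, with 0 counts in pup 2 and 7 in pup 1, came to 1.76-fold lower in pup 2. Its counts are also too few to compare the pups. Without Dkk3 the ratio of summed antagonists to Wnt ligands was 0.830 in pup 2 and 1.07 in pup 1. The median log2 ratio of -0.06 lay between -0.15 and -0.06 under all other scalings and minimums, at -0.15 by the ratio of TPM and -0.13 by log2(TPM + 1). For single genes, 95 ratios under other scalings moved by less than the distance from the centre of their counting interval to its ends. Another 9 moved further, all of them TPM-based, and none of the ratios changed sign where it was called. Ratios between the pups cannot be recomputed without a pup. No paired analysis was possible because both pups belong to 1 group. Depth limits the genes with under 20 counts, of which there were 11, and the division of reads among transcripts of Wnt11 and Wnt5b.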
